A study of Drosophila melanogaster with 2 samples.

Results

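Core promoters, the stretches of DNA next to transcription start sites, held 433 of the 2031 thresholded binding peaks of the fly fork head domain protein fd102C, a share of 21.3% (95% Wilson interval 19.6% to 23.2%). A peak was counted when its summit, the base of highest signal, lay 0 to 100 bp from the nearest annotated start site of any gene on arms 2L, 2R, 3L, 3R, 4 or X. The embryos were whole Drosophila melanogaster embryos of mixed sex, 2 to 6 h old by their source description, and the assay was ChIP-seq, in which DNA crosslinked to a protein is pulled down with an antibody and sequenced. The embryos came from a transgenic line that stably expresses fd102C with GFP joined to its C-terminal end. Whether the line keeps its own fd102C gene is not given in the sources used here. All samples carry the transgene and form 1 group of 2 biological replicates, so there is no contrast between conditions, and no control library was analysed here. Their description field calls both samples input controls, while the assay title and antibody name ChIP-seq of fd102C, and they were treated as ChIP. Sequencing depth is unknown, because the lists hold no read counts.

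Fork head domain proteins bind DNA through a winged-helix domain that reads A- and T-rich sites built around the core RTAAAYA (R is A or G, Y is C or T). In flies, the core promoters of broadly used genes tend to hold sites such as the DRE, bound by DREF and overlapping the site of the insulator protein BEAF-32, motif 1, bound by M1BP, and motifs 6 and 7 of the standard core promoter set. Core promoters of regulated developmental genes more often hold a TATA box, an initiator or a downstream promoter element. Ribosomal protein genes start transcription at a pyrimidine-rich initiator, the TCT element.

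The start sites below show the promoter sequences on which the results turn, 1 for each of 6 promoter motifs and 1 for the highest core promoter peak. Each run covers 130 bases of the dm6 assembly, read 5′ to 3′ on the strand of the gene, with 100 bases before the start base. Capitals mark the motif. The motif 7 site of Regnase-1, an RNase that degrades messenger RNAs, begins 13 bp downstream of its start (chr3R:20036027-20036156, minus strand). The DRE of eEF1gamma, a translation elongation factor subunit, begins 41 bp upstream (chr3R:29220072-29220201, plus strand), the motif 1 of RpLP1, a stalk protein of the large ribosomal subunit, 19 bp upstream (chr2L:419852-419981, plus strand), and the motif 6 of tzn 31 bp upstream (chr3L:20798545-20798674, plus strand). The E-box CAGCTG of CG11309 begins 17 bp downstream (chr3L:21304438-21304567, minus strand) and the TCT element of RpL23A, a protein of the large ribosomal subunit, 2 bp downstream (chr3L:1668625-1668754, minus strand). In lncRNA:CR31840, a long noncoding RNA gene, a fork head core begins 85 bp upstream (chr2L:14024070-14024199, minus strand). It begins over 100 bp from the summit and runs across the edge of the summit window. Not being wholly inside, it is not counted, and this peak counts as lacking a fork head core in the summit windows.
Regnase-1: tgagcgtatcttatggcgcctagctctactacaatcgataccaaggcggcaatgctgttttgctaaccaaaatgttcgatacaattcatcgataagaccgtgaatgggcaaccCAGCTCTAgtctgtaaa
eEF1gamma: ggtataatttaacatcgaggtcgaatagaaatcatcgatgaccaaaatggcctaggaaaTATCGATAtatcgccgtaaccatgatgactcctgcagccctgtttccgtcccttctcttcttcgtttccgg
RpLP1: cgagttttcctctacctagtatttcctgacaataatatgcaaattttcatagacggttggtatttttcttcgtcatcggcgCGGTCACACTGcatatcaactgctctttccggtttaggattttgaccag
tzn: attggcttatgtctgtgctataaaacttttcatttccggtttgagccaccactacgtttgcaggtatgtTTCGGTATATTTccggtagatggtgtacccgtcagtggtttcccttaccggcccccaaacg
CG11309: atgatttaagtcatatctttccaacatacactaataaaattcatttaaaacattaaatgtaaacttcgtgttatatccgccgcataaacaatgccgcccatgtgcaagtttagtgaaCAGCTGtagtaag
RpL23A: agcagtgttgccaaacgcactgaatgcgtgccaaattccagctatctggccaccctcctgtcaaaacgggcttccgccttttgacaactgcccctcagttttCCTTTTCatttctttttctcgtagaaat
lncRNA:CR31840: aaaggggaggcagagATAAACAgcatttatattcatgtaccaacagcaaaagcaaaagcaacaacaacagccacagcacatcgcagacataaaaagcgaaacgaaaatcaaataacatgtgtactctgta

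The share of core promoter peaks, 21.3%, stood beside 3.28% of the length of the arms that lies within 100 bp of a start site. Among the 2031 weakest peaks of the pooled list, which holds 30000 peaks called on both replicates together, 5.81% (4.87% to 6.91%) lay at core promoters. The share did not follow signal in 1 direction. Core promoters held 12 of the 100 highest pooled peaks, 13.5% of the next 400 peaks, 100 of the next 500 and 25.9% of ranks 1001 to 2031. Just under the threshold, at ranks 2032 to 5000, the share was 26.6%, and it was 14.4% at ranks 5001 to 10000, 8.50% at ranks 10001 to 20000 and 5.83% at ranks 20001 to 30000. Core promoter peaks were thus most frequent at middle ranks, on both sides of the threshold, and rarer at the highest and the lowest ranks. The same shape appeared in each replicate's own list, with 13 and 12 of the 100 highest peaks of replicates 1 and 2, 26.1% and 27.5% at ranks 1001 to 2031, and 5.28% and 6.17% at the lowest ranks. All intervals given here are 95% intervals over peaks, genes or start sites, which cover counting error only, since these are not replicates of the embryos.

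**Figure D1:**
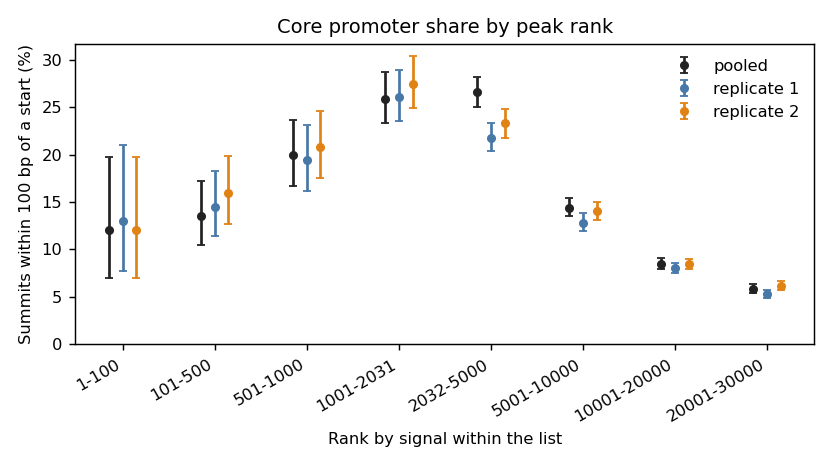
Share of summits within 100 bp of a start site (%, vertical axis, from 0) by rank of the peak within its list (horizontal axis), for the pooled list and each replicate's list; bars are 95% Wilson intervals over peaks. All 3 lists peak at ranks 1001 to 5000 and fall to between 5.28% and 6.17% at the lowest ranks.

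Summits lay more often before the start site than after it. Of the 433 summits, 268 were upstream of the nearest start in the direction of transcription (61.9%, 57.2% to 66.3%), 4 were on the start base and 161 were downstream. By position, 136 lay 51 to 100 bp upstream, 132 lay 1 to 50 bp upstream, 109 lay on the start base or up to 50 bp downstream, and 56 lay 51 to 100 bp downstream. The upstream side was therefore filled nearly evenly and the downstream side thinned out with distance. With a distance limit of 50 bp the upstream share was 54.8% (48.5% to 60.9%), an interval that includes an even split. In the 2031 highest peaks of each replicate taken alone, chosen by the same rule, 55.6% of core promoter summits were upstream in replicate 1 (50.9% to 60.2%) and 62.1% in replicate 2 (57.6% to 66.4%), so the size of the excess was smaller in replicate 1. Below the threshold, at ranks 2032 to 5000 of the pooled list, 51.9% were upstream. In the annotation, 188 summits (43.4%) lay outside every gene, 194 (44.8%) lay in an exon and 4 in a coding exon. The nearest start was that of the gene's canonical transcript for 223 peaks (51.5%), and the rest sat at alternative starts. The limit of 100 bp cuts through a continuous range of distances: betaggt-I, blw and CG32075 had the highest signals of those just inside it, at 100 bp, with 244, 196 and 158, and lncRNA:CR44331, Tom and mRpL4 were the highest just outside it, 1 bp farther, with signals of 231, 180 and 155.

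**Figure D2:**
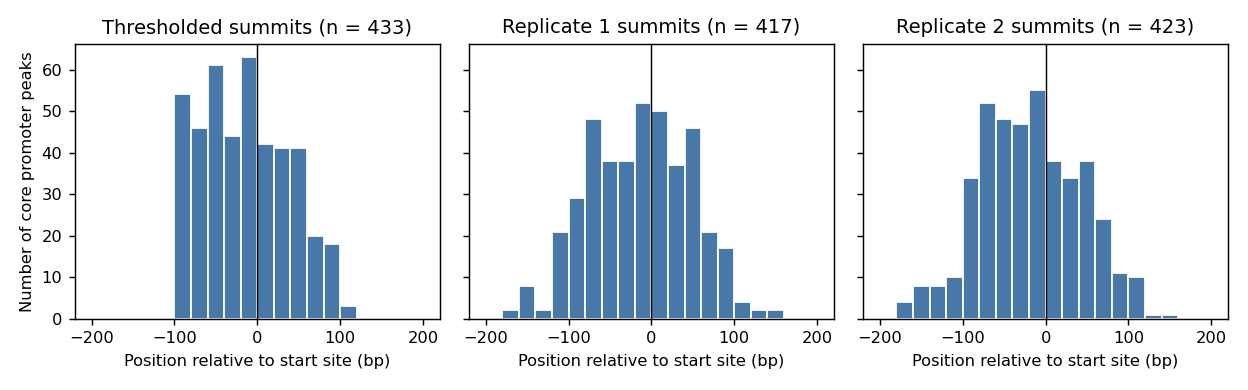
Number of core promoter peaks (vertical axis) by position of the summit relative to the start site (bp, negative is upstream), in 20 bp bins, for the thresholded summits and for the nearest summit within 100 bp in each replicate. The left plot stops at the limit of the rule (its last bar holds summits at 100 bp), 268 summits lie left of 0 and 161 right of it, and the replicate summits spread a little past the limit.

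Core promoter peaks had a lower signal than peaks elsewhere. The signal, a value written by the authors' peak caller on a scale that is not stated, had a median of 164 at core promoters (quartiles 140 and 212, range 126 to 1398). The median was 191 at the 649 peaks over 100 and up to 1000 bp from a start, 186 at the 632 peaks inside genes farther away, 182 at the 317 intergenic peaks, and 188 over all 1598 other peaks. In replicate 1 the matched peaks had a median of 97.6 at core promoters and 108 at all other peaks, and in replicate 2 these medians were 74.7 and 83.8. The ratio of the medians, core promoters over all other peaks, was 0.872 in the thresholded list, 0.901 in replicate 1 and 0.891 in replicate 2 (SD between replicates 0.00677, n = 2). The quartiles of the classes overlap widely, so this is a shift between broad distributions. Of the core promoter peaks, 66 (15.2%) were above the upper quartile of signal of all thresholded peaks, compared with 27.6% of all other peaks, a difference of -12.4 percentage points (95% Newcombe interval -16.2 to -8.09).

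Most core promoter peaks were found in both replicates. The thresholded list was made from these same 2 replicates and is labelled as cut by IDR, a measure of agreement between replicates. A high share of matches is therefore partly built into it. A summit within 100 bp stood in both replicate lists for 407 of 433 core promoter peaks (94.0%, 91.3% to 95.9%), compared with 96.0% of all other peaks, and the interval of the difference includes 0 (-4.78 to 0.162 points). For the strictest match, a rank within the highest 2031 of both replicates, the share was 57.5% at core promoters and 70.2% elsewhere (difference -12.6 points, -17.8 to -7.53). The median distance between the summits of the 2 replicates was 26.0 bp at core promoters and 22.0 bp elsewhere, and 40.5% and 47.4% of these pairs lay within 20 bp (difference -6.85 points, -12.1 to -1.41). Core promoter peaks were also more isolated: 22 of them (5.08%) had another thresholded summit within 1000 bp, compared with 9.89% of all other peaks (difference -4.81 points, -7.12 to -1.96).

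The highest core promoter peak was at lncRNA:CR31840, with a signal of 1398 and its summit 18 bp downstream of the start (chr2L:14023927-14024252). It ranked 3 among all pooled peaks, 3 in replicate 1 and 6 in replicate 2. CG9147 followed with a signal of 773, its summit 1 bp before the start, and ranks 30 and 24 in replicates 1 and 2. Next came Alg3, a mannosyltransferase of N-glycan assembly, with 761 (ranks 45 and 18), and Fkbp14, a peptidyl-prolyl isomerase of the endoplasmic reticulum, with 639 (ranks 56 and 36). The gap between the first peak and the second was thus larger than that between any later neighbours among the first 20. CG11309 had 618, CHMP2B, a subunit of the membrane-cutting ESCRT-III complex, 616, and Ugalt, a transporter of UDP-galactose, 576. RpL7, a protein of the large ribosomal subunit, had 575, and yps, a Y-box protein that binds RNA, had 565 with its summit on the start base. These 9 genes held the highest signals.

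The other 11 of the 20 highest were lncRNA:CR44149 (535), tzn (508), RpS27 (506), Regnase-1 (487), PNPase, a mitochondrial RNA phosphorylase (484), Lon, a mitochondrial protease (448), RpL24 (433), RpL23A (427), CG31886 (426), eEF1gamma (421) and l(2)gd1, a regulator of endosomal sorting (418). All 20 had a matched peak in both replicates, at ranks no lower than 211 in replicate 1 and 207 in replicate 2. Of these 20, 14 had the summit upstream of the start, 9 stood at divergent gene pairs, 4 were at ribosomal protein genes and 4 had a fork head core within 100 bp of the summit. At the low end were rhea, the fly talin, scny, a deubiquitinase, and rib, a BTB protein of tube formation, each with a signal of 126. Their replicate ranks spread far apart: scny ranked 1140 in replicate 1 and 6661 in replicate 2, and rhea 2101 and 3287. fd102C itself had no core promoter peak; the summit nearest to its start, 29 bp away, had a signal of 49.0 and rank 17086 in the pooled list.

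**Figure D3:**
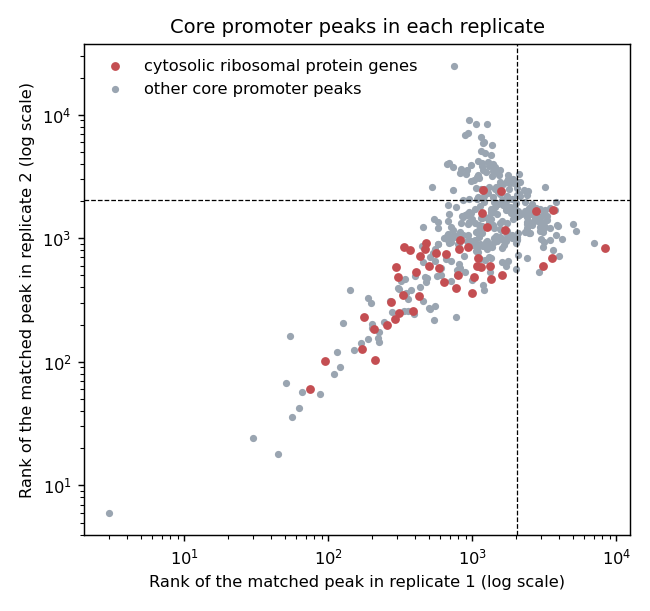
Rank of the matched peak in replicate 1 (horizontal axis, log scale) against replicate 2 (vertical axis, log scale) for core promoter peaks matched in both, with peaks at cytosolic ribosomal protein genes in red; dashed lines mark rank 2031. Ranks lie near the diagonal among the highest peaks and fan out toward the lower ones, and 249 of the 433 peaks lie within both lines.

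Of the 433 peaks, 404 were nearest to a protein-coding start, 17 to a noncoding RNA gene, 8 to a tRNA gene, 2 to a snoRNA gene and 1 each to a snRNA gene and a pseudogene. A start of 480 genes lay within 100 bp of a core promoter summit, because 35 peaks lay within 100 bp of starts of 2 genes, 3 peaks of 3 genes and 2 peaks of 4 genes. No gene had more than 1 such peak. Among them were 445 of 13945 protein-coding genes, or 3.19%, which is the background for the gene lists below. tRNA genes had 9 of 290 (3.10%), close to that background. The lists are described by their counts, with no test.

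Cytosolic ribosomal protein genes stood far above that background: 50 of 88 (56.8%, 46.4% to 66.7%) had a core promoter peak, and 46 of 88 and 54 of 88 had one when the 2031 highest peaks of replicate 1 and of replicate 2 were taken alone. The highest were RpL7 (575), RpS27 (506), RpL24 (433) and RpL23A (427), and the lowest was RpS27A (127). At these 50 peaks the median signal was 239, compared with 158 at the other 383 core promoter peaks. In replicate 1 the median was 134 at ribosomal protein genes and 95.1 at the other core promoter peaks, and in replicate 2 it was 107 at ribosomal protein genes and 70.3 at the others. Of the 38 genes without a core promoter peak, RpL34b, RpL32, RpS20 and RpLP2 missed the limit narrowly, with the nearest summit 102, 103, 138 and 155 bp from a start. For RpL15 and RpL38 the nearest thresholded summit was 4171795 and 1634911 bp away. Binding near ribosomal protein genes was thus placed at the start site itself: extending the distance to 1000 bp brought the count to 54 of 88.

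Other genes of protein synthesis and energy supply were nearer to the background of 3.19% than cytosolic ribosomal protein genes were. Of these lists, only that of translation factors had an interval wholly above the background. Translation factors had 7 of 54 (13.0%, 6.42% to 24.4%), led by eEF1gamma (421), eIF3a (197), eEF2 (184) and eEF5 (179). The peak of eIF3a is nearest to a start of CG1074, 7 bp away, and cannot be given to 1 of them. Mitochondrial ribosomal proteins had 2 of 75, mRpL23 (301) and mRpS16 (138), proteasome subunits 1 of 48, Rpn3 (159), and the respiratory chain and ATP synthase 4 of 88, ATPsynbeta (141), COX6B (131), ATPsynC (130) and ND-24 (128). Chromatin and insulator genes had 6 of 43 (14.0%, 6.56% to 27.3%), with an interval above the background. Among them were Cp190, a protein that insulator factors recruit (314), and Dref, which encodes the DRE-binding factor (314). Dref shares its peak with RpL13, whose start also lies within 100 bp, so that peak is likewise shared. Cell cycle genes had 4 of 35 (11.4%, 4.54% to 26.0%), also with an interval above the background. These 4 were the cyclin-dependent kinase inhibitor dap (188), cyclin E gene CycE (185), the Cdc25 phosphatase gene stg (130) and cyclin B gene CycB (129). Splicing factors had 2 of 26, SmD3 (195) and B52 (171). Histone genes had 0 of 118, a count that is uncertain because they stand in near-identical repeats among which reads cannot be placed.

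Developmental regulators differed from list to list, and the core promoter peaks of the genes in the lists of this paragraph had signals between 134 and 222. Pair-rule genes, which divide the early embryo into segments, had 4 of 10 (16.8% to 68.7%): hry (222), odd (207), opa (169) and slp1 (134). hry ranked 577 in replicate 1 and 1202 in replicate 2, and slp1 ranked 1084 and 3158, so slp1 was below rank 2031 in replicate 2. The E(spl) complex, targets of Notch signalling, had 3 of 11: E(spl)malpha-BFM (199), E(spl)m4-BFM (181) and E(spl)m5-HLH (154). Hox genes had 0 of 8 (up to 32.4%), gap genes 0 of 10 (up to 27.8%), neuronal genes 0 of 14 (up to 21.5%) and muscle structural genes 0 of 15 (up to 20.4%). Of 17 fork head domain genes, slp1 had a core promoter peak. With lists this short, a count of 0 leaves the background share within its interval.

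The fork head core was less frequent at core promoter summits than over all other summits. RTAAAYA, searched on either strand in the 100 bp to each side of a summit, was present in 142 of 433 core promoter windows (32.8%, 28.5% to 37.4%). It was present in 47.9% of windows over 100 and up to 1000 bp from a start, 46.5% inside genes, 40.4% in intergenic windows (difference -7.58 points, -14.5 to -0.629) and 45.9% over all other peaks, a difference of -13.1 points (upper end of the interval -7.91). With peaks chosen in replicate 1 alone the difference was -15.3 points, and in replicate 2 alone -14.0. It was smaller with windows of 250 bp on each side, at -5.50 points (-10.7 to -0.476), and with the narrower core GTAAACA, at -4.95 points (-7.43 to -1.93). From intergenic peaks alone the difference lost its side of 0 in both cases, at 0.0641 points (-6.90 to 7.11) and -0.935 points (-4.77 to 2.58), and with a distance limit of 200 bp, at -3.21 points (-9.76 to 3.23). From peaks inside genes the interval also came to include 0 with windows of 250 bp, at -5.04 points (-10.9 to 0.790). Base composition moved with this result: core promoter windows had a median GC content of 42.3%, compared with 36.3% for all other windows, and its part in the difference was not tested. Compared at start sites, where position is the same, the fork head core was in 29.6% of windows at core promoter peaks and 27.1% of windows at the 23151 other start sites, a difference of 2.43 points whose interval includes 0 (-1.71 to 6.93). With 250 bp on each side of the start the difference was 5.31 points with an interval above 0 (0.589 to 9.84), so this comparison depends on the window. Within the core promoter peaks the share did not follow signal: it was 33.8% in the 216 higher peaks and 31.8% in the 217 lower ones (interval of the difference -6.81 to 10.8 points). Where a fork head core was present in the summit window, its median distance was 38 bp to the summit and 81.0 bp to the start. That window favours sites near the summit.

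Promoter motifs, in contrast, were more frequent at these start sites. Of 18 motifs, 11 had a higher share in the 433 start sites at core promoter peaks than in the 23151 others, with an interval of the difference above 0, and 7 had an interval that includes 0. Unless stated otherwise, each was searched on both strands from 100 bp before to 100 bp after the start, and a match is a description of the letters, not of a bound site. Motif 7 (CAKCNCTR, K is G or T and N any base) differed most, with 24.7% (20.9% to 29.0%) at core promoter peaks and 12.3% elsewhere, a difference of 12.4 points (8.53 to 16.7). The peaks at RpL7 and Regnase-1 also held a motif 7 match within 100 bp of the summit, which at Regnase-1 is not the site in capitals above. The DRE (TATCGATA) was in 10.4% and 5.36% of windows (5.04 points, 2.48 to 8.28), and the core CGATA of BEAF-32, which lies inside it, in 41.1% and 34.5%. Motif 1 was in 5.54% and 2.67% (2.87 points, 1.07 to 5.45), and CACACT, which lies inside it, in 23.6% and 14.9%. Motif 6 was in 2.54% and 1.21%, and GTATTTTT, 1 of its forms, in 6.70% and 4.33%. In the higher-signal part of the list the intervals for motif 1 (0.234 points, -1.47 to 4.02), CGATA and GTATTTTT came to include 0. That for motif 6 did so with a distance limit of 50 bp, with windows of 50 bp and with canonical starts. With windows of 50 bp that for GTATTTTT did so too.

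The E-box CAGCTG was in 18.0% of windows at core promoter peaks and 12.2% of the others (5.84 points, 2.48 to 9.76). Its interval came to include 0 with peaks of replicate 1 alone (2.41 points), with a distance limit of 50 bp (1.85 points) and with canonical starts (3.30 points). AGRKGGC, part of the CTCF site, was in 9.24% and 6.28% (2.96 points, 0.556 to 6.07), but the interval came to include 0 with a distance limit of 50 bp, with windows of 50 or 250 bp and with canonical starts. The pause button KCGRWCG (W is A or T), searched on the gene's strand from 0 to 60 bp downstream, was in 8.31% and 4.60% (3.71 points, 1.45 to 6.71). The TCT element YCTTTYY at the start was in 13 of 433 windows and 0.583% of the others (2.42 points, 1.18 to 4.49), and 12 of those 13 windows were at ribosomal protein genes. Without ribosomal protein genes the difference for the TCT element was -0.260 points (-0.497 to 0.946), so its excess rests on them. Leaving those genes out brought the number of motifs above 0 from 11 to 7, with motif 6, its form GTATTTTT, CGATA and the TCT element no longer among them, a check chosen after the data had been seen.

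For the TATA box, the initiator and the downstream promoter element the intervals of the differences include 0 in the main comparison. The TATA box TATAWA at its usual position was in 6.47% of windows at core promoter peaks and 7.87% of the others (-1.40 points, -3.39 to 1.34). Its interval lay below 0 with peaks of replicate 2 alone (-2.50 points, -4.25 to -0.0330). With a distance limit of 200 bp it did so too (-2.38 points, -3.91 to -0.348), and under the other alternatives it included 0. The initiator TCAKTY was in 9.70% and 9.01%, and the downstream promoter element RGWYVT (V is A, C or G) in 6.00% and 5.63%. With a distance limit of 200 bp the interval for the downstream promoter element lay above 0 (1.89 points, 0.103 to 4.15). Under the other alternatives that interval included 0. The GAGA factor site GAGAGAG was in 5.31% and 4.39%, the CACGTG E-box, bound by Myc with Max, in 4.16% and 2.79%, and CAGGTAG, the site of the early activator Zelda, in 0.924% and 1.04%. For CACGTG and GAGAGAG the interval lay above 0 when either replicate was used alone (3.42 and 2.40 points for CACGTG, 2.97 and 3.20 points for GAGAGAG), so these 2 are undecided in these data.

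**Figure D4:**
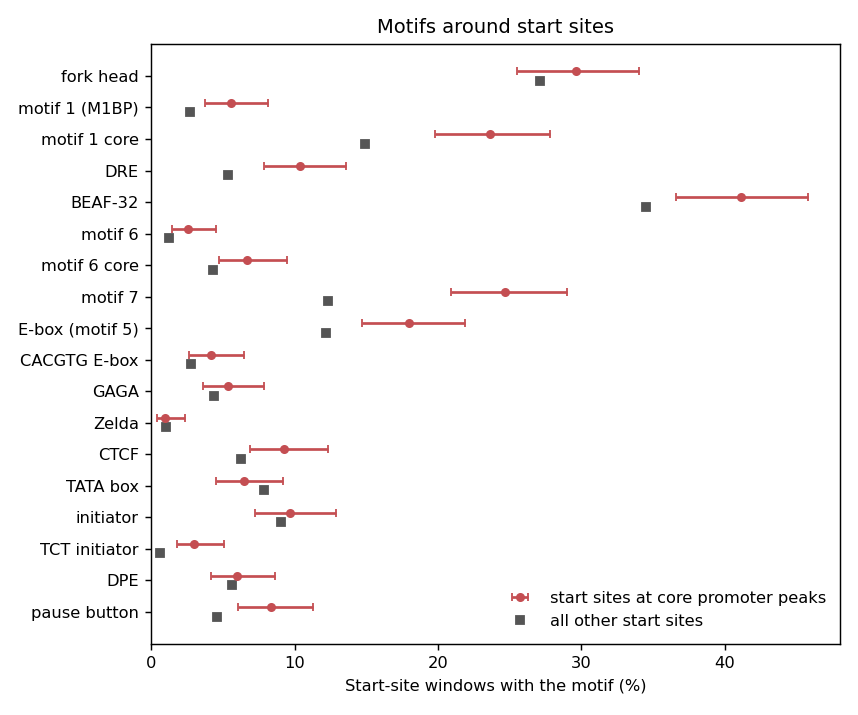
Share of start-site windows that hold each motif (%, horizontal axis), for the 433 start sites at core promoter peaks (red, with 95% Wilson intervals) and the 23151 other start sites (grey squares). Motif 7 stands farthest apart, at 24.7% and 12.3%, and the fork head core at 29.6% and 27.1% does not.

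The motif sites had their own positions. Positions were first taken for sites in the summit windows, which reach farther upstream when the summit lies upstream. In those windows at core promoter peaks, motif 7 sites had a median position 22.5 bp upstream of the start and 79.4% were upstream. Counted around the start itself, the share of start sites with a motif 7 site at core promoter peaks was highest in the 25 bases just before the start. It was 9.24% there (6.86% to 12.3%), and 2.76% at other start sites. In the summit windows, motif 1 sites had a median distance of 23.0 bp to the start, and DRE sites 37.5 bp. Fork head cores in the summit windows were spread differently, with 14.7% of them within 25 bp of the start. Around the start itself, in 12 of the 16 bins of 25 bases the share of start sites with a fork head core was higher at core promoter peaks than at other start sites, and in 4 it was lower. In the 25 bases just before the start it was 3.70% at core promoter peaks and 3.78% at other start sites.

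**Figure D5:**
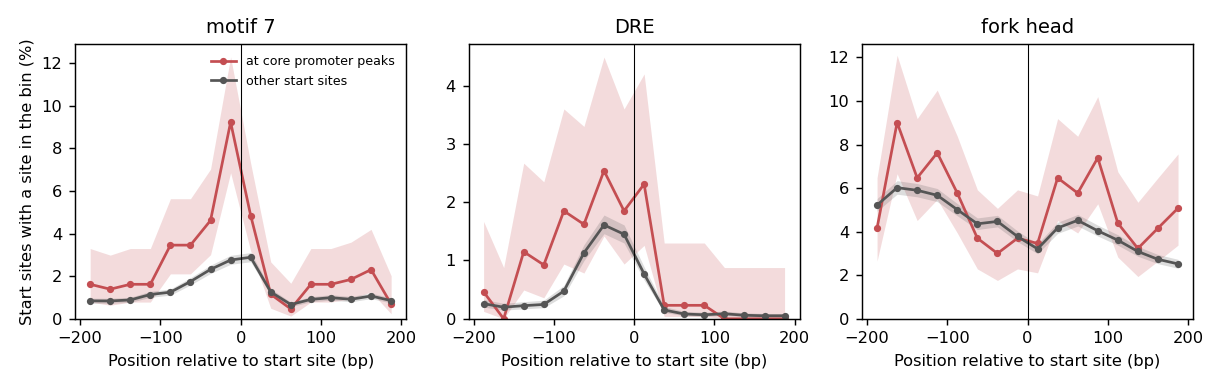
Share of start sites with a site in each 25 bp bin (%, vertical axes differ) by position relative to the start (bp), for motif 7, the DRE and the fork head core, at core promoter peaks (red) and other start sites (grey); bands are 95% Wilson intervals. Motif 7 reaches 9.24% just before the start in red and 2.76% in grey, while the fork head core dips at the start in both.

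Around the summit, the contrast with peaks elsewhere was wider. Motif 7 was in 24.7% of core promoter windows and 6.95% of all other summit windows (17.8 points, 13.7 to 22.2), the DRE in 9.93% and 1.00%, and motif 1 in 5.31% and 0.125%. Zelda sites were in 0.231% and 1.94% (-1.71 points, -2.53 to -0.501), and the CTCF letters in 8.78% and 9.07%. Any of motif 7, the DRE, motif 1 or motif 6 was in 154 core promoter windows (35.6%) and 8.14% of other windows. The fork head core was in 30.5% of the 154 windows with 1 of these 4 motifs and 34.1% of the 279 without (difference -3.53 points, -12.4 to 5.80), an interval that includes 0. Core promoter summits below the threshold held promoter motifs too. At ranks 2032 to 5000 of the pooled list, motif 7 was in 21.8% of core promoter windows, the DRE in 8.35% and motif 1 in 6.58%. At ranks 20001 to 30000 these shares were 15.1%, 6.69% and 4.12%. The motifs are thus not particular to the thresholded core promoter peaks. The summit side was compared by motifs held near the start, a choice made after the data had been seen, since a window around the summit covers upstream sites more often when the summit is upstream. The summit was upstream for 75.6% of the 45 peaks with a DRE within 100 bp of the start and 60.3% of those without (15.2 points, 0.247 to 26.6). It was upstream for 71.0% with motif 7 and 58.9% without (12.1 points, 1.56 to 21.6), and for 39.3% of the 28 peaks with a TATA box and 63.5% without (-24.2 points, -40.5 to -5.25). The median signal was 185 with a DRE in the summit window and 161 without, and 157 with motif 7 and 164 without.

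Short words counted without a preset list were compared over 404 protein-coding start sites at core promoter peaks and 18849 others, and the words named were picked for their difference, so they carry no test. ACACTG, which overlaps motif 1, was in 24.3% and 14.0% of windows, CGCAGC in 21.8% and 12.7%, and CCGGAA in 14.6% and 5.64%. AACTAA showed the widest difference in the other direction, with 8.17% and 17.4%. Mean GC content of the windows was 43.4% ± 7.32 and 42.2% ± 7.79 (SD over start sites). Among words of 8 bases, ACCGGAAA led, with 5.94% and 0.621%. CCGGAA was in 27 of the 50 windows at ribosomal protein genes (54.0%, 40.4% to 67.0%) and in 32 of the other 354 protein-coding windows (9.04%), compared with 5.53% of other start sites that are not of ribosomal protein genes. At the ribosomal protein genes its median position was 24.5 bp downstream of the start, with 80.0% of sites downstream. By gene, CCGGAA was near a start of 27 of the 50 ribosomal protein genes with a core promoter peak and 10 of the 38 without, and ACCGGAAA near 14 of 50 and 0 of 38. Both words were picked by comparing start sites with and without a peak, these genes included. The split therefore repeats that choice and cannot show that the words mark the genes with a peak. Motif 7, from the preset list, was near 14 of 50 and 10 of 38, and the TCT element near 16 of 50 and 10 of 38.

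Divergent gene pairs were frequent among these promoters. A start of another gene on the opposite strand lay within 500 bp upstream for 174 of the 433 start sites (40.2%, 35.7% to 44.9%), compared with 22.0% of the other start sites, a difference of 18.2 points (13.7 to 22.9). In each replicate's own highest peaks the difference was 16.2 and 23.2 points. At divergent pairs the summit was upstream of the nearest start, that is toward the shared stretch between the genes, in 70.1% of peaks, and at the other promoters in 56.4% (difference 13.7 points, 4.45 to 22.5). Of the 50 peaks at ribosomal protein genes, 24 were at divergent pairs and 11 (22.0%) held a fork head core, compared with 34.2% of the other core promoter peaks.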

How the data were processed

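The data are ChIP-seq peak lists for fd102C joined to GFP, from 2 replicates numbered as in the labels, which call them biological and say no more on whether embryos were collected separately. Chromatin was sonicated to 200 to 800 bp, per the labels. Each deposited list gives, per peak, a signal (scale not stated), a summit and a −log10 q-value, written by the authors' caller; the deposited q-value served only to order peaks of equal signal. Per the notes that accompany the files, the authors made lists of 30000 peaks from each replicate and from the pool, against a control not used here; the thresholded list holds the 2031 pooled peaks of highest signal. The thresholded list is labelled as cut by IDR, a measure of agreement between replicates. The aligner is not given in the sources used here, nor are the caller and the value of the threshold, and depth is unknown. Lists of fixed length hold background as well as binding.

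Start sites (23584 positions, 18164 genes) came from Ensembl release 115 without transposable elements, and sequences from the RefSeq copy of the same assembly: no peak passed an arm end, and 99.5% of plus-strand coding starts read ATG. Ties went to protein-coding genes. Replicate summits within 100 bp were matched. Motif windows were 100 bp on each side. Shares have Wilson and differences Newcombe 95% intervals over peaks, genes or start sites; no p-value was computed, since 1 group holds no contrast. The counting was tested on simulated data. Python 3.11.15, numpy 2.4.6 and pandas 2.3.3 were used. Members and lists were chosen with earlier results of these data known. Genes named were fd102C, the 20 highest and 3 lowest peaks, 3 on each side of the limit, up to 4 per list and up to 2 per motif with an interval without 0; the ribosomal protein genes without a peak and the short words were named after their values were seen. Alternatives were each replicate alone, the highest peaks, other distances, windows, consensus and start sites.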

Additional observations from a re-analysis of the deposited data

How the results depend on the processing

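The share of core promoter peaks was 16.6% in the higher-signal part of the list, 11.9% with a limit of 50 bp and 33.0% with 200 bp, and 21.5% to 22.8% with 1 replicate alone. The upstream share was 54.8% with 50 bp, 69.7% with 200 bp and 55.6% to 62.1% with 1 replicate alone. The signal ratio was 0.892 in the higher-signal part, 0.886 with 50 bp, 0.906 with 200 bp and 0.884 to 0.909 with 1 replicate alone. The share matched in both replicates was 97.6% in the higher-signal part, 72.3% with a match within 50 bp, 99.1% within 200 bp, and 85.3% to 89.2% when peaks were chosen in 1 replicate and matched in the other. For all of these the cause was not tested, and distance limits change which peaks are counted. The number of motifs above 0 was 7 without ribosomal protein genes, an alternative chosen after seeing the data. The fork head difference from intergenic peaks was 0.0641 points with windows of 250 bp, compared with -7.58 in the report, and that of the TCT element -0.260 points without ribosomal protein genes. The counts of ribosomal protein genes, the divergent share, the fork head difference from all other peaks and the fork head share by signal kept their direction or their interval around 0 under the alternatives run. In all, 17 values moved and 49 did not. Of the single motif comparisons 163 kept their sign and call, 8 whose interval includes 0 turned sign, 14 intervals left 0, 20 came to include 0 and 2 called differences turned. No paired analysis was possible because the samples form 1 group. The unknown depth and signal scale limit comparisons to within a list.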

Other observations

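Protein-coding genes with a core promoter peak were longer than those without. Their median span was 3590 bp (quartiles 1686 and 10645) for 445 genes with a peak and 2138 bp (1167 and 4886) for 13500 genes without, and the median number of exons was 4 and 3. Genes with a single exon made up 6.29% and 16.5% (difference -10.2 points, -12.2 to -7.46). More than 1 start position was annotated for 51.2% and 25.7% (difference 25.5 points, 20.8 to 30.2), and each further start adds a window in which a summit can be counted.

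Core promoter peaks were rarer on the X chromosome. Per 1000 annotated start positions there were 11.3 on X (8.40 to 15.1) and 19.8 on the other arms together, a difference of -0.851 percentage points (-1.20 to -0.426). The other arms ran from 18.7 on 2R to 21.9 on 4, the last from 4 peaks. Of the thresholded peaks on X, 14.7% were at core promoters, compared with 22.5% on the other arms (difference -7.74 points, -11.8 to -2.89). The embryos were of mixed sex, and no control library was analysed here that would show coverage of the X chromosome.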
